A study of Mus musculus with 4 samples.

Results

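The mouse heat shock proteins and their DnaJ co-chaperones were followed across intestinal mucosa of A/J and C57BL/6J mice fed little or much fat. Members were all genes whose array symbol starts with Hspa, Hspb, Hspd, Hspe, Hsph, Hsp90 or Dnaj, without Hspbap1 and Hspbp1, which gave 60 of the 12393 genes on the array. They comprise 12 genes of the Hsp70 and Hsp110 families, 2 of the Hsp90 family, 6 small heat shock proteins, the 2 mitochondrial chaperonin genes and 38 DnaJ genes. Of these, 45 were measured, meaning that the mean signal over the 4 arrays, scaled as described next, was at least 100.

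The 4 groups were male A/J mice fed low-fat, male A/J mice fed high-fat, male C57BL/6J mice fed low-fat and male C57BL/6J mice fed high-fat, all aged 10 weeks and kept on their diet for 2 weeks. Each group held 6 mice, of which 2 of average body weight gave the pooled total RNA that was hybridised to 1 Affymetrix 430A array. The study's title places the comparison in intestinal lipid metabolism during diet-induced obesity, to which C57BL/6J is a prone and A/J a resistant strain. There were no replicate arrays, so ratios between 2 arrays have no test, and precision is limited by having only 4 arrays. Where 4 signals are given for a gene, A/J comes before C57BL/6J and, within a strain, low-fat before high-fat.

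Values are signal intensities, with each array multiplied by a factor (2.72 to 3.41) that set its trimmed mean to 500. Signals under 100 were taken as 100 in every ratio, and a ratio with such a side is written as "at least". Across arrays 58.6% to 60.3% of the probe sets reached 100. The enterocyte markers, which define the absorptive epithelium, summed to 122929 to 126739 over 8 genes. Among them, the brush border protein Vil1 read 11616 to 12909. Within this sum, Lct read 16252, 13207, 10549 and 10887, and Cdx2 read 2981, 2863, 2100 and 1698. Lct passed 1.5-fold between strains only for the low-fat pair of arrays, and Cdx2 only for the high-fat pair. Of the 8, limma called 0 for strain (at an unadjusted p under 0.05, Lct and Cdx2 higher in A/J and 0 lower). Markers of other cells and tissues also differed between arrays. Exocrine pancreas genes (11 of 11 measured) summed to 97911 and 2674 in A/J and to 98188 and 155833 in C57BL/6J. Of these, limma called 3 lower in A/J (Cela2a, Cela3b and Cpb1), while the median log2 strain ratio of the 11 was 0.09 on low-fat and -6.25 on high-fat. T cell genes (8 of 9 measured) summed to 3075, 4283, 13020 and 7183, with Cd8b1 under 100 on average, and limma called 3 of them lower in A/J (Gzma, Gzmb and Ccl5). At 1.5-fold, 6 of the 8 were lower in A/J on low-fat, beside 9.23% of all measured genes. On high-fat 1 was lower, beside 6.88%. The median log2 ratios of the 8 were -1.18 on low-fat and 0.09 on high-fat. Stomach genes (4 of 7 measured) summed to 2966, 1419, 1519 and 8418. Smooth muscle genes (7 of 10 measured) summed to 6677, 4750, 4482 and 4420, and limma called 1 higher in A/J, Des, at 270, 262, 69.5 and 28.0. Of 6 measured B and plasma cell genes limma called 1 higher in A/J (Cd79a), and of 6 goblet cell genes 1 lower (Spink4). All 3 probe sets of 18S ribosomal RNA were higher on both C57BL/6J arrays than on both A/J arrays, so this signal separates the strains on each diet. Of the 45 measured members, 25 (55.6%) were likewise higher on both C57BL/6J arrays, beside 21.9% of all genes, and 4 (8.89%) were lower, beside 27.3%. The 5' probe set of 18S read 218, 84.4, 11010 and 1675, the middle one 96.8, 23.3, 601 and 187, and the 3' one 214, 182, 5012 and 398. The part of these differences in the results was not tested. In a bulk sample, fewer cells of a type and less RNA per cell cannot be told apart.

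Heat shock proteins are molecular chaperones. Hsp70 proteins bind unfolded stretches of polypeptide, DnaJ proteins deliver the clients and stimulate ATP hydrolysis by Hsp70, and Hsp110 proteins exchange its nucleotide. Hsp90 proteins finish the folding of kinases and receptors, small heat shock proteins hold unfolded proteins without ATP, and the chaperonin Hspd1 with its lid Hspe1 folds proteins in the mitochondrial matrix. A subset in the cytosol is induced by heat and other protein-damaging stress through the transcription factor Hsf1, which binds inverted repeats of GAA called heat shock elements, while the chaperones of the endoplasmic reticulum are induced by the unfolded protein response. The intestinal epithelium is known to make inducible heat shock proteins, and cues from microbes and food are known to raise them there.

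Promoters are shown first, because the members with the largest strain differences include several classical targets of Hsf1. RefSeq promoters (GRCm38.p6, a C57BL/6J reference, 250 bases before to 50 after the start) were given for 49 of the 60 members, in 63 windows. The A/J sequence was not analysed here. A heat shock element of 3 units, GAANNTTCNNGAA or TTCNNGAANNTTC on either strand, was in a window of 0.662% of all 27025 genes and of 4 of the 49 members, Hsph1, Hspe1, Hspd1 and Dnajb6. The shorter form of 2 units, GAANNTTC or TTCNNGAA, lies within every 3-unit match, and was found for 17.0% of all genes and for 14 of the 49 members. The ER stress element, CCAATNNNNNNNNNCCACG, was found for 0.137% of all genes and for 3 of the 49 members, Hspa5, Hsp90b1 and Dnajc3.

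The 250 bases before the start are printed 5' to 3' on the strand of the gene, with the motif matches in capitals. Capitals mark the heat shock element of 2 units for Hspa1b (chr17:34959239-34959488, minus strand), Hspa1a (chr17:34972157-34972406, minus strand), Hsph1 (chr5:149636337-149636586, minus strand, at 1 of its 2 starts) and Hspb1 (chr5:135887669-135887918, plus strand). They mark the element of 3 units, here 2 overlapping matches, for Hspe1 (chr1:55087898-55088147, plus strand). For the endoplasmic reticulum chaperones Hspa5 (chr2:34771840-34772089, plus strand) and Hsp90b1 (chr10:86705445-86705694, minus strand) they mark the ER stress element.
Hspa1b: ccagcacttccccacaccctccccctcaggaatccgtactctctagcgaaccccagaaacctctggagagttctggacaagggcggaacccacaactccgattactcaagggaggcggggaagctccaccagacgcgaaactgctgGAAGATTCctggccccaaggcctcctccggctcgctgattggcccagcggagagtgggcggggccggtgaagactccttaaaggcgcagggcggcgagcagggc
Hspa1a: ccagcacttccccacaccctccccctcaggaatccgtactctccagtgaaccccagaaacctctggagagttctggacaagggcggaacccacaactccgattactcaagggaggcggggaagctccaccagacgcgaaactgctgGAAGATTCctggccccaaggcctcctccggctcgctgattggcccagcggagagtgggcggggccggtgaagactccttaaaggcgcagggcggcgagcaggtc
Hsph1: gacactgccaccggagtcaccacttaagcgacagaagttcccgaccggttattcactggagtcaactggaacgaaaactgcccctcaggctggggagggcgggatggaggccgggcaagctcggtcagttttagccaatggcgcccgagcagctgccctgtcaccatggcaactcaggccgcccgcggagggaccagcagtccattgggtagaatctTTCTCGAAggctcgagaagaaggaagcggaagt
Hspb1: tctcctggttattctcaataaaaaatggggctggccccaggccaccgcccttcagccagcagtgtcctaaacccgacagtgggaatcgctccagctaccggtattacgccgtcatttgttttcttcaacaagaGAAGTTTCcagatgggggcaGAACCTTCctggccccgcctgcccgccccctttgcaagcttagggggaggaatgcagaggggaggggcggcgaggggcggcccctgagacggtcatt
Hspe1: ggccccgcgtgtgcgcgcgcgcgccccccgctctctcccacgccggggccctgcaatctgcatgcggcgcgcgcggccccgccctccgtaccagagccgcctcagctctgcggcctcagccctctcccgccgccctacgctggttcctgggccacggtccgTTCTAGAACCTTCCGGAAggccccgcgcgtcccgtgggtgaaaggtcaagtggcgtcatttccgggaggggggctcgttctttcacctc
Hspa5: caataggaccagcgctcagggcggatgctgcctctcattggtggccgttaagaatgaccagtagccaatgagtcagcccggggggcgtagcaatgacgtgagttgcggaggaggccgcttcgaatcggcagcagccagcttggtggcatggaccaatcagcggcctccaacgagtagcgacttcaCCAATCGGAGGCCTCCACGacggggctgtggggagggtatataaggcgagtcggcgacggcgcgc
Hsp90b1: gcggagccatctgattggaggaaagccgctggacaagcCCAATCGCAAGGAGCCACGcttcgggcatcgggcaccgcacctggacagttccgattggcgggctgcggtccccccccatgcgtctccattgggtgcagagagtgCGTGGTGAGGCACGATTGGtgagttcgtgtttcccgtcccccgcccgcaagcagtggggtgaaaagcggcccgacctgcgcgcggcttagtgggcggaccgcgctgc

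The Hspa1a and Hspa1b stretches are identical at 247 of 250 bases, and the match lies 104 to 97 bases before the start in both. The 3-unit match of Hsph1, TTCTGGAAAGTTC, lies outside the printed stretch, 37 to 49 bases after that start. The Hspe1 stretch is shared with Hspd1, which is read in the opposite direction from the same interval, so the element counts for both genes. Dnajb1, the DnaJ partner of the inducible Hsp70, had no match to any of the 3 motifs in its window. A match is a description of the letters and not a binding site.

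The comparison of the strains asked how the mucosa of mice resistant and prone to obesity differs. On the low-fat diet, 9 of the 45 measured members (20.0%) were at least 1.5-fold lower in A/J, beside 9.23% of all 8036 measured genes, and 0 were higher, beside 10.9% of all genes. On the high-fat diet 11 members (24.4%) were lower, beside 6.88% of all genes, and 0 were higher, beside 8.37%. The median log2 ratio of the members was -0.25 on low-fat and -0.23 on high-fat, against 0.02 and 0.04 over all measured genes. The C57BL/6J arrays enter both the strain and the diet ratios, and each strain ratio uses its own pair of arrays. With no scaling between arrays, 46 members were measured. The counts were then 1 higher and 8 lower on low-fat and 2 higher and 6 lower on high-fat. The shares of all genes moved the same way, with more genes higher in A/J and fewer lower on each diet. Counted relative to the median of all genes, 0 members were higher and 10 lower on low-fat, and 0 higher and 13 lower on high-fat. Without scaling the median of all genes moved to 0.20 and 0.32 and that of the members to -0.05 and 0.06, so on high-fat the sign of the members' median turned; relative to all genes it was -0.26 on each diet.

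In an additive fit of strain and diet over all 4 arrays, 7 members (15.6%) were called lower in A/J at a limma adjusted p under 0.05, beside 3.68% of all genes. In the same fit 0 members were called higher in A/J, beside 3.83%, and at an unadjusted p under 0.05 the counts were 13 lower, beside 9.36% of all genes, and 0 higher, beside 12.2%. The 7 are Hspa1b, Hspa1a, Hsph1, Dnajb1, Hspb1, Hspe1 and Dnajc10. The error of this fit is the strain-by-diet difference among 4 pools, with 1 residual degree of freedom moderated over all genes. With 3 arrays this fit has no residual degree of freedom, so arrays were left out of a fit with strain only, which called 3 members lower in A/J on all 4 arrays. Without any 1 array it called 0 of the members and 0 of all genes. Signals of both A/J arrays lay below both C57BL/6J arrays in 25 members (55.6%), beside 21.9% of all genes. Both A/J arrays lay above in 4 members (8.89%), beside 27.3%, namely Hspa9, Dnajc4, Dnajc13 and Dnajc30. Without scaling these counts were 14 and 10, and the shares of all genes in that setting were not computed.

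**Figure D1:**
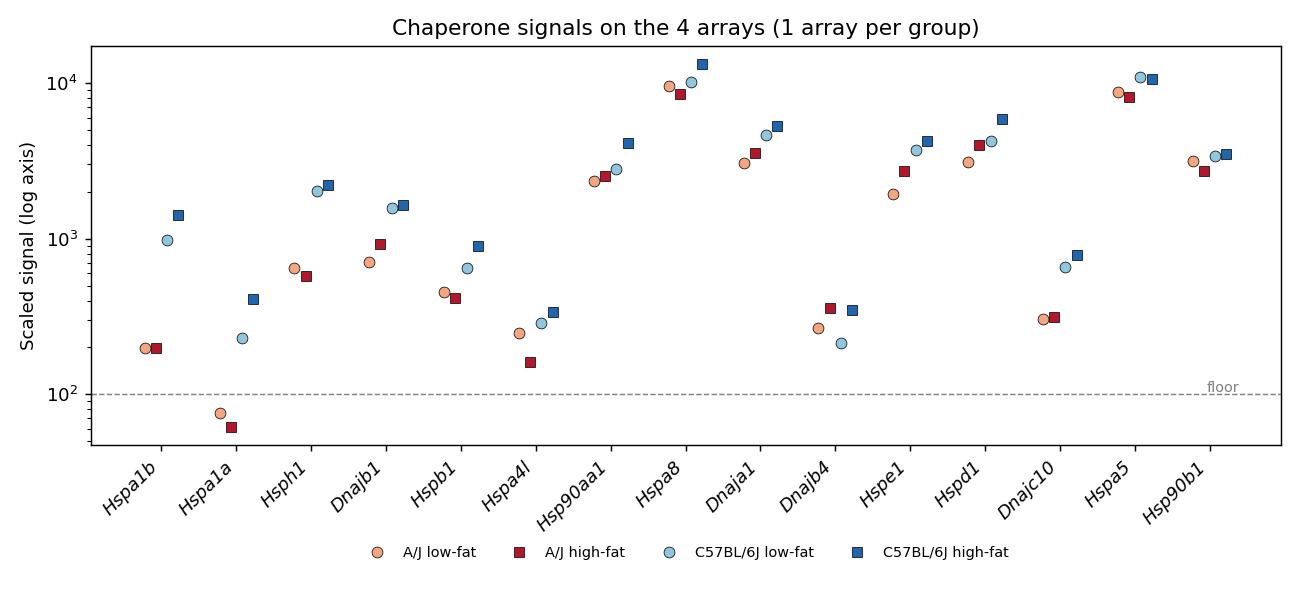
Scaled signal on a log axis of 15 heat shock genes on each of the 4 arrays, circles for low-fat and squares for high-fat, red for A/J and blue for C57BL/6J, with the floor of 100 dashed. In Hspa1b both A/J points sit at 198 and the C57BL/6J points at 986 and 1417, whereas the points of Hsp90b1 lie between 2724 and 3474.

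Among the cytosolic Hsp70 and Hsp110 genes, the stress-inducible members showed the largest strain ratios. Hspa1b, the strictly inducible Hsp70, had a scaled signal of 198 on both A/J arrays, 986 in C57BL/6J on low-fat and 1417 in C57BL/6J on high-fat. Both A/J arrays were low and both C57BL/6J arrays high. The A/J signal was 4.97-fold lower on low-fat and 7.14-fold lower on high-fat, and the fitted log2 strain difference was -2.57 (SE 0.208, limma adjusted p = 1.39e-05). Hspa1a, its near-identical neighbour on chromosome 17, read 75.6 and 61.4 in A/J, under the floor, against 230 and 409 in C57BL/6J. It was therefore at least 2.30-fold lower on low-fat and at least 4.09-fold lower on high-fat, and its fitted difference of -1.62 (SE 0.228, limma adjusted p = 0.000825) is also a bound. Because the transcripts are so alike, and the Hspa1b probe set is of a type that may hybridise to related transcripts, how the signal splits between the copies is uncertain.

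Hsph1 encodes Hsp110, the nucleotide exchange factor of cytosolic Hsp70. It read 645 and 579 in A/J and 2019 and 2202 in C57BL/6J, low-fat first, with no overlap. It was 3.13-fold lower in A/J on low-fat and 3.80-fold lower on high-fat, a fitted log2 difference of -1.79 (SE 0.199, limma adjusted p = 0.000157). Hspa4, a constitutive relative of Hsph1, read 1073 and 1114 in A/J and 1164 and 1297 in C57BL/6J, under 1.5-fold on either diet (log2 -0.17, limma adjusted p = 0.688). Hspa4l, another Hsp110 relative, read 247 and 161 in A/J and 287 and 338 in C57BL/6J. The A/J signal was 1.16-fold lower on low-fat and 2.10-fold lower on high-fat, and its strain difference was not called (log2 -0.64, limma adjusted p = 0.119). Hspa8, the constitutive Hsp70 that serves protein folding and clathrin uncoating, read 9522, 8440, 10222 and 13229. It was 1.07-fold lower in A/J on low-fat and 1.57-fold lower on high-fat (log2 -0.38 over both, limma adjusted p = 0.335). Its probe set may also detect related transcripts. On high-fat, where it gave a log2 ratio of -0.65, the 2 next brightest Hspa8 probe sets gave -1.32 and -1.18. A dim one, with signals of 117 to 355 and the only one left when sets that may detect related transcripts are dropped, gave 0.39.

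The Hsp90 genes differed less. Hsp90aa1, the inducible cytosolic Hsp90, read 2331, 2529, 2798 and 4128. It was 1.20-fold lower in A/J on low-fat and 1.63-fold lower on high-fat, and was not called (log2 -0.49, limma adjusted p = 0.19). The C57BL/6J high-fat array was the high one. Hsp90b1, the Hsp90 of the endoplasmic reticulum, read 3141, 2724, 3379 and 3474 (log2 -0.23, limma adjusted p = 0.572). Its other probe set read 1655, 1198, 1554 and 2107, which was 1.07-fold higher in A/J on low-fat and 1.76-fold lower on high-fat.

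**Figure D2:**
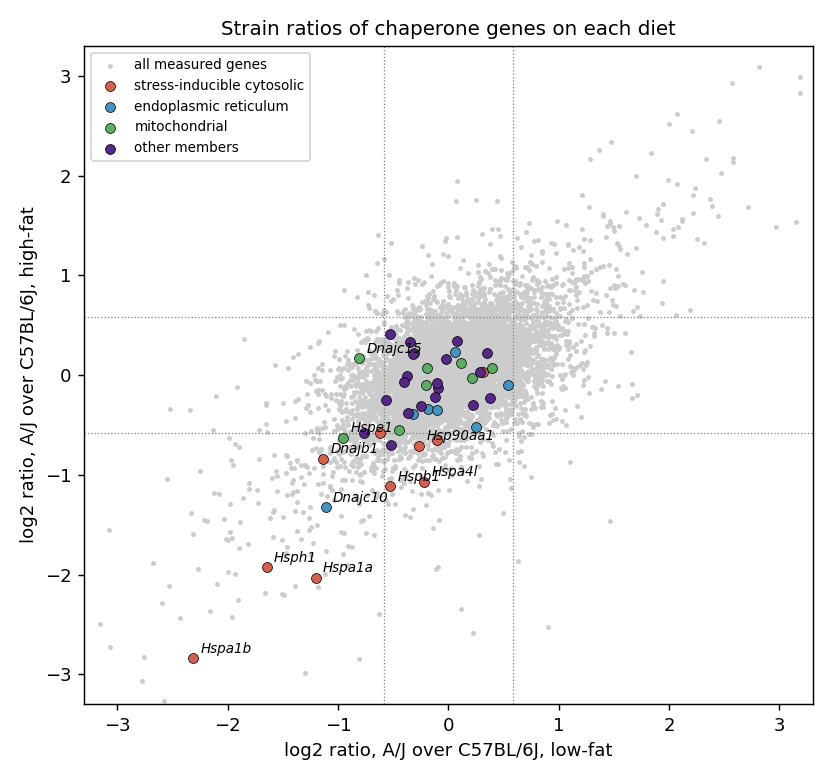
Log2 ratio of A/J over C57BL/6J on low-fat (horizontal) and on high-fat (vertical) for the measured members, coloured by list, over all measured genes in grey; dotted lines mark 1.5-fold, and grey genes beyond the axes are not drawn. Hspa1b lies lowest at -2.31 and -2.84, Hsph1 at -1.65 and -1.93, and 0 members lie beyond 1.5-fold higher on either axis.

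Of the DnaJ genes that serve cytosolic Hsp70, Dnajb1 is the inducible partner. It read 712 and 923 in A/J and 1564 and 1652 in C57BL/6J, 2.20-fold lower in A/J on low-fat and 1.79-fold lower on high-fat. The groups did not overlap, and the fitted log2 difference was -0.99 (SE 0.199, limma adjusted p = 0.00944). Dnaja1, a farnesylated type A co-chaperone, read 3045 and 3564 in A/J and 4665 and 5329 in C57BL/6J. At 1.53-fold lower on low-fat and just under the 1.5-fold threshold on high-fat (log2 -0.58), it was not called (log2 -0.60, limma adjusted p = 0.0882). Dnajb2, which has a neuronal role and ubiquitin-binding motifs, read 307 and 382 in A/J and 440 and 622 in C57BL/6J. It was 1.43-fold lower in A/J on low-fat and 1.63-fold lower on high-fat (log2 -0.61, limma adjusted p = 0.0842). The other bright cytosolic and nuclear DnaJ genes stood within 1.5-fold: Dnajb6 read 1864 to 2093 and Dnajc7, a co-chaperone that also binds Hsp90, read 1538 to 1879. Dnajc8, which is linked to splicing, read 2451, 3172, 3121 and 2517 (log2 -0.01).

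Of the small heat shock proteins, 2 of 6 were measured. Hspb1, the Hsp27 homologue that guards actin filaments and holds unfolded proteins, read 452 and 415 in A/J and 649 and 899 in C57BL/6J. It was 1.44-fold lower in A/J on low-fat and 2.17-fold lower on high-fat, with a fitted log2 difference of -0.82 (SE 0.212, limma adjusted p = 0.0356). Hspb11, which is an intraflagellar transport protein (Ift25) more than a chaperone, read 93.8 and 83.2 in A/J and 170 and 149 in C57BL/6J. The A/J signal was lower by at least 1.70-fold on low-fat and at least 1.49-fold on high-fat, and missed the threshold (log2 -0.67 as a bound, limma adjusted p = 0.0595).

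In mitochondria, Hspe1, the chaperonin lid, read 1930 and 2722 in A/J and 3737 and 4210 in C57BL/6J. It was 1.94-fold lower in A/J on low-fat and 1.55-fold lower on high-fat (log2 -0.79, SE 0.200, limma adjusted p = 0.0327). Hspd1, the chaperonin ring encoded from the same promoter region, read 3092, 4004, 4215 and 5851 and was not called (log2 -0.50, limma adjusted p = 0.158). Its A/J high-fat signal lay close under the C57BL/6J low-fat signal. Hspa9, the matrix Hsp70 known as mortalin, ran the other way, at 2623 and 2164 in A/J and 1999 and 2057 in C57BL/6J (log2 0.23, limma adjusted p = 0.568). Dnajc15, a DnaJ protein of the import motor, read 835, 1148, 1463 and 1021. It was 1.75-fold lower in A/J on low-fat and 1.12-fold higher on high-fat (log2 -0.32, limma adjusted p = 0.499).

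In the endoplasmic reticulum, Dnajc10, a disulfide reductase also called ERdj5, was the only called member. It read 303 and 316 in A/J and 654 and 790 in C57BL/6J. It was 2.16-fold lower in A/J on low-fat and 2.50-fold lower on high-fat (log2 -1.22, SE 0.197, limma adjusted p = 0.00231). Its second-brightest probe set read 422, 535, 444 and 476 and gave a mean strain log2 ratio of 0.05, so the difference depends on the probe set. Hspa5, the lumenal Hsp70 known as BiP and a main target of the unfolded protein response, read 8735 and 8114 in A/J and 10940 and 10641 in C57BL/6J. It was 1.25-fold lower in A/J on low-fat and 1.31-fold lower on high-fat, and was not called (log2 -0.36, limma adjusted p = 0.318). The other Hspa5 probe set read 2101, 1934, 2698 and 2998, which was 1.28-fold lower in A/J on low-fat and 1.55-fold lower on high-fat. Dnajb11, a lumenal DnaJ partner of BiP, read 1465, 1301, 1661 and 1647 (log2 -0.26, limma adjusted p = 0.501).

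**Figure D3:**
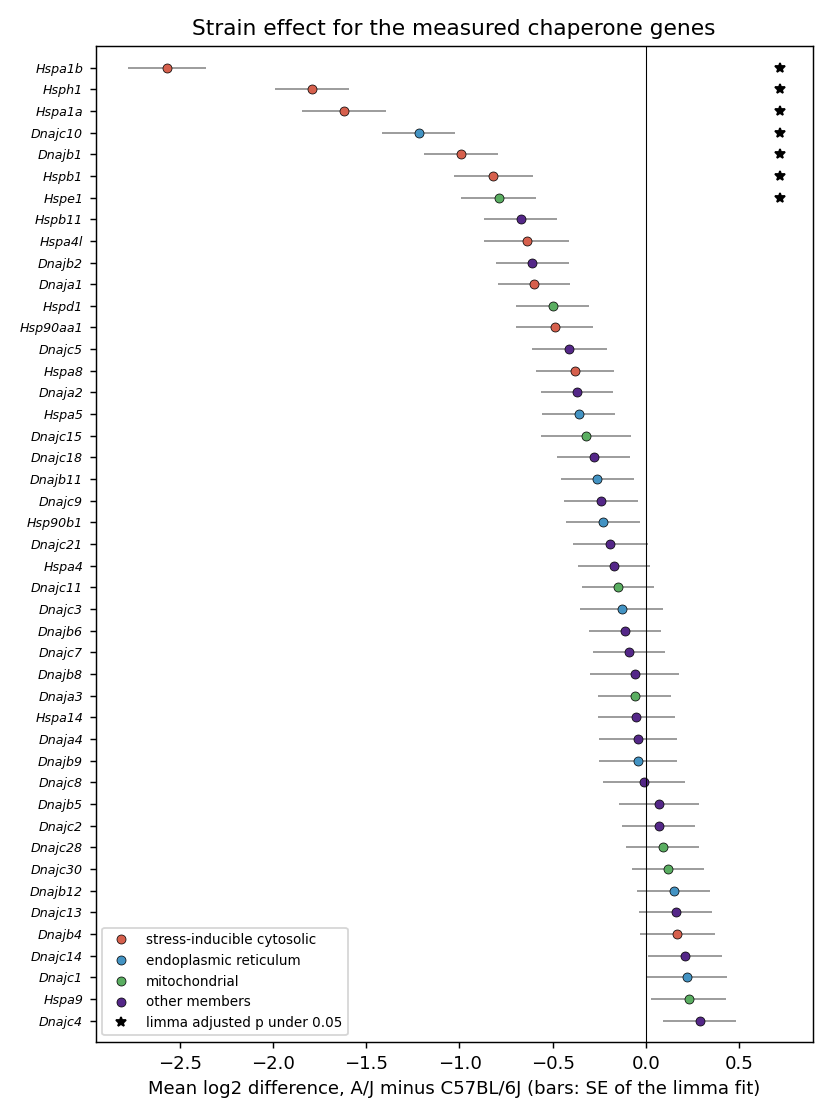
Fitted strain difference (A/J minus C57BL/6J, log2 of floored scaled signal) with its limma standard error for the 45 measured members, coloured by list; stars mark the 7 with an adjusted p under 0.05. Values run from -2.57 for Hspa1b to 0.29 for Dnajc4.

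By list, the 10 stress-inducible cytosolic members held 5 of the 7 calls, where limma called 3.68% of all genes lower in A/J. The list holds Hspa1a, Hspa1b, Hsph1, Hsp90aa1, Dnajb1, Hspb1, Dnaja1, Hspa4l, Dnajb4 and also Hspa8, which is constitutive. At 1.5-fold, 5 of the 10 were lower in A/J on low-fat, beside 9.23% of all genes, and 8 on high-fat, beside 6.88%. The median log2 ratios were -0.57 and -0.95, and 0 were higher, beside 10.9% and 8.37% of all genes. Without Hspa8, 5 and 7 of 9 were lower, with medians of -0.62 and -1.07. Without scaling, or without probe sets that may detect related transcripts, 5 were lower on high-fat. Of the 8 measured endoplasmic reticulum members, 1 was lower on each diet, with medians of -0.14 and -0.35. This count uses the probe set that stands for each gene, and the other probe sets of Hspa5 and Hsp90b1 passed 1.5-fold lower on high-fat. Of the 8 mitochondrial members, 2 were lower on low-fat and 1 on high-fat, with medians of -0.20 and 0.02. Among the 18 measured members on no list, 0 were lower on low-fat and 1 on high-fat, and limma called 0 of them (at an unadjusted p under 0.05, 1 lower, Dnajb2). The difference between these lists was not tested, and they were written with earlier results of these data known. Of the members called for strain, 6 of 7 had the 2-unit heat shock element in a RefSeq window, against 5 of the 30 other measured members with a window. Of all genes, 17.0% had it. Since 4 of those 6 are textbook Hsf1 targets chosen for the same list, this is a description.

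Closest to the 1.5-fold threshold on low-fat were Dnaja1, inside at 1.53-fold, and Dnajc5, a synaptic vesicle co-chaperone, outside at 1.48-fold. On high-fat they were Hspe1, inside at 1.55-fold, and Dnaja1, outside. In all, 19 members reached 1.5-fold in a comparison of either kind and 26 stayed under it in all 4. Strain differences of those 26 ran from -0.50 (Hspd1) to 0.29 (Dnajc4) on the log2 scale. At a threshold of 2-fold, 5 members were lower in A/J on low-fat, beside 2.64% of all genes, and 6 on high-fat, beside 2.38%. Higher in A/J at 2-fold were 0 members on low-fat, beside 3.0% of all genes, and 0 on high-fat, beside 1.93%.

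Other probe sets gave a further reading of the same arrays. Of the 7 called genes, 6 had another measured probe set, 8 in all, and 7 of the 8 had the same sign. For Hspa1b the other 2 gave mean strain log2 ratios of -2.40 and -2.38, although they read under the floor on 1 or both A/J arrays and are bounds. The second probe set gave -1.40 for Hsph1, -1.44 for Hspb1 as a bound, -0.50 for Dnajb1 and -0.28 for Hspe1. Sizes thus differed between probe sets more than directions did. Over all measured members, 30 of 38 other probe sets in 24 genes had the same sign.

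**Figure D4:**
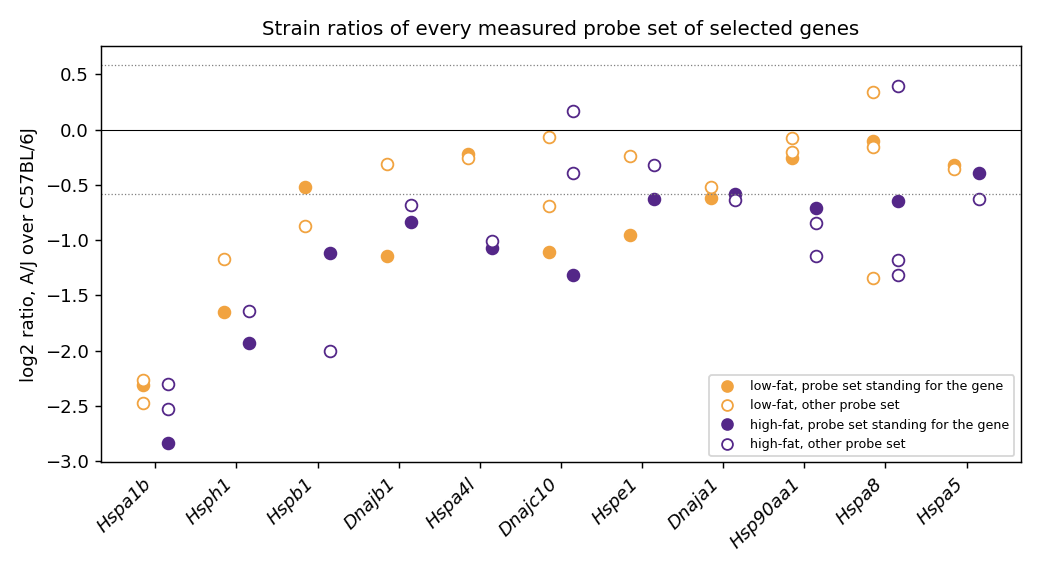
Log2 ratios of A/J over C57BL/6J for every measured probe set of 11 heat shock genes, orange on low-fat and purple on high-fat, with dotted lines at 1.5-fold; filled points are the probe set that represents the gene and open points its others. All 3 probe sets of Hspa1b lie below -2, whereas the probe sets of Dnajc10 and Hspa8 are spread.

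The comparison of the diets asked whether 2 weeks of dietary fat changed these genes. In the fit over 4 arrays limma called 0 members for diet in either direction, beside 0.423% of all genes higher and 0.187% lower. At an unadjusted p under 0.05 it had 1 member higher (Dnajb4) and 1 lower (Dnajc28), beside 4.87% and 4.48% of all genes. At 1.5-fold in A/J, 0 members were higher on high-fat, beside 4.99% of all genes, and 3 were lower, beside 4.7%. In C57BL/6J 3 were higher, beside 5.13%, and 1 was lower, beside 4.63%, shares close to those of all genes. Without scaling the C57BL/6J counts were 1 higher and 3 lower, and among all genes too fewer were higher and more lower. Counted relative to the median of all genes, the unscaled C57BL/6J counts were 3 higher and 1 lower. At 2-fold, 0 members differed with diet in A/J, beside 0.796% of all genes higher and 1.05% lower, and 0 in C57BL/6J, beside 1.02% higher and 0.672% lower. These counts use the probe set that stands for each gene. In C57BL/6J other probe sets of Hspa8, Hsp90aa1 and Hspb1 were higher on high-fat by 1.28, 1.19 and 1.13 on the log2 scale. A dim Hspa8 probe set went the other way, at -1.60. The members had a median diet log2 ratio of 0.00 (A/J) and 0.04 (C57BL/6J), against 0.01 and -0.01 over all genes. Both high-fat arrays lay above both low-fat arrays in 3 members (6.67%), beside 14.1% of all genes, and below in 5 (11.1%), beside 14.3%.

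In C57BL/6J, Hspa1a was 1.78-fold higher on high-fat, from 230 to 409, while in A/J both signals were under the floor. Hspa1b was 1.44-fold higher in C57BL/6J and equal in A/J. Dnajb4, a DnaJ partner of Hsp70, read 267 and 357 in A/J and 215 and 350 in C57BL/6J, low-fat first. It was 1.34-fold and 1.63-fold higher on high-fat, with a fitted diet log2 difference of 0.56 (SE 0.199, limma adjusted p = 0.364). The other Dnajb4 probe set, which is dimmer, read 172 and 148 in A/J and 122 and 144 in C57BL/6J. On high-fat it was 1.16-fold lower in A/J and 1.17-fold higher in C57BL/6J. Dnajb5 read 130 and 144 in A/J and 99.3 and 170 in C57BL/6J, a ratio of at least 1.70-fold in C57BL/6J and of 1.11-fold in A/J. Hsp90aa1 lay just outside the threshold in C57BL/6J at 1.48-fold and Dnajb4 just inside. None of these diet ratios has a replicate check. The C57BL/6J high-fat array also had the highest sums of stomach genes (8418) and exocrine pancreas genes (155833), whose part was not tested. Among the 10 stress-inducible members the median diet log2 ratio was 0.42 for C57BL/6J and 0.00 for A/J, and this difference between strains was not tested.

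Lower on high-fat in A/J were Dnajc28, Hspa4l and Dnajc1. Dnajc28 read 191 and 115 in A/J and 165 and 117 in C57BL/6J, 1.66-fold and 1.40-fold lower, with both high-fat arrays under both low-fat arrays (log2 -0.61, SE 0.198, limma adjusted p = 0.286). Hspa4l went from 247 to 161 in A/J, 1.53-fold lower, and from 287 to 338 in C57BL/6J. Its other probe set, of similar brightness, did not fall in A/J to that extent, at 192 and 188 (1.02-fold lower). In C57BL/6J that probe set went from 230 to 379, 1.65-fold higher. Dnajc1, an endoplasmic reticulum DnaJ protein that meets the ribosome, read 181 and 119 in A/J and 125 and 127 in C57BL/6J, inside the threshold at 1.53-fold in A/J. The nearest member outside the threshold in A/J was Hspa14, which was 1.42-fold higher on high-fat, from 204 to 290. Dnajb8, known from the testis, read 135 and 133 in A/J and 195 and 73.0 in C57BL/6J, at least 1.95-fold lower on high-fat there. Of these members, Dnajc28, Dnajc1 and Dnajb8 lie near the floor of 100. The chaperonin genes were higher on high-fat in both strains under the threshold, Hspd1 by 1.30-fold and 1.39-fold (log2 0.42, limma adjusted p = 0.539) and Hspe1 by 1.41-fold and 1.13-fold.

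**Figure D5:**
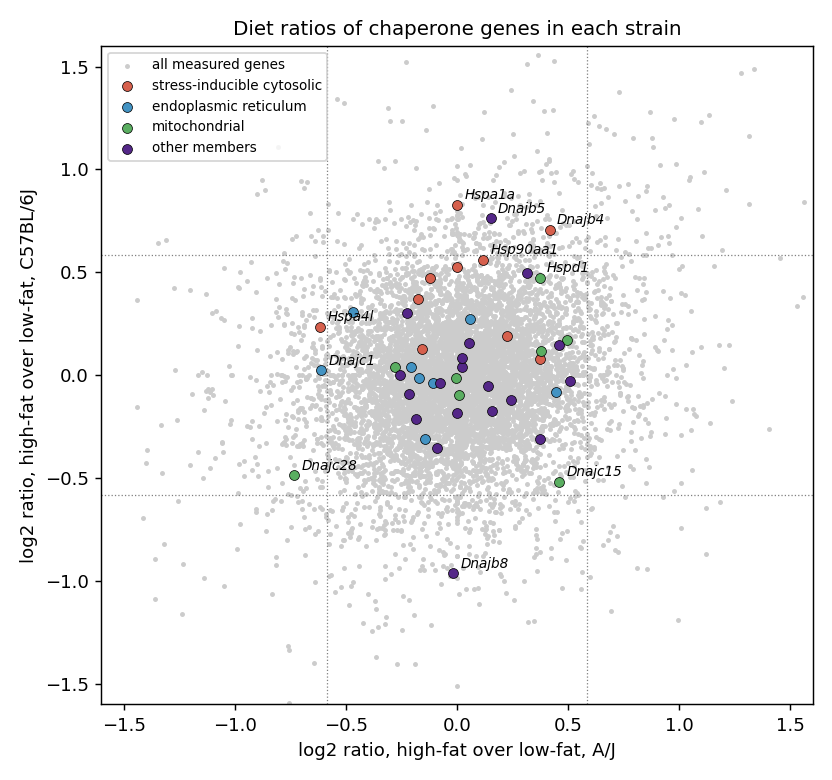
Log2 ratio of high-fat over low-fat in A/J (horizontal) and in C57BL/6J (vertical) for the measured members, coloured by list, over all measured genes in grey; dotted lines mark 1.5-fold, and grey genes beyond the axes are not drawn. The members lie around the origin, with medians of 0.00 and 0.04, and 0 of them pass 1.5-fold in the same direction in both strains.

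Partner genes of the same machinery were read from separate lists. Of all measured genes, limma called 3.83% higher and 3.68% lower in A/J, and 0.423% higher and 0.187% lower on high-fat. At an unadjusted p under 0.05, limma had 12.2% of all genes higher and 9.36% lower in A/J. At 1.5-fold, 10.9% were higher and 9.23% lower in A/J on low-fat, and 8.37% and 6.88% on high-fat. Of 28 measured co-chaperones of Hsp70 and Hsp90, limma called 0 for strain (at an unadjusted p under 0.05, 3 higher and 2 lower in A/J), and their median strain log2 ratios were 0.10 on low-fat and -0.03 on high-fat. On high-fat 2 were at least 1.5-fold lower in A/J: Stip1, the adaptor that links Hsp70 to Hsp90, read 354, 377, 464 and 648 (1.72-fold), and Chordc1, an Hsp90 co-chaperone, read 880, 801, 1217 and 1299 (1.62-fold). On low-fat 3 were higher in A/J, Bag4 by 2.07-fold, Tomm70a by 1.64-fold and Fkbp8 by 1.62-fold. For diet, Bag4 (1.51-fold), St13 (1.61-fold) and Tomm70a (1.62-fold) were higher on high-fat in C57BL/6J, and limma called 0 for diet (at an unadjusted p under 0.05, 1 higher, St13). Of the heat shock factors, Hsf2 and Hsf4 were under the floor, and Hsf1 was not analysed here. Both alpha crystallins were under the floor.

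The cytosolic chaperonin and prefoldin list, whose complexes fold actin and tubulin, had 12 measured genes, and limma called 0 for either term (at an unadjusted p under 0.05, 0 for strain and 1 for diet, Cct6a). Its subunit Cct6a read 1995, 3624, 1897 and 2908, 1.82-fold and 1.53-fold higher on high-fat (diet log2 0.74, limma adjusted p = 0.177), and Pfdn1 and Pfdn5 were 1.76-fold and 1.68-fold lower in A/J on low-fat. Of 9 mitochondrial partners, the nucleotide exchange factor Grpel1 was 1.53-fold lower in A/J on low-fat, and limma called 0 (at an unadjusted p under 0.05, 1 higher in A/J, Hscb). Of 19 partners in the endoplasmic reticulum, limma called 1 lower in A/J, Creld2, a gene of the unfolded protein response, at 757, 702, 1149 and 1414 (log2 -0.81, SE 0.203, limma adjusted p = 0.0323). Herpud1, another such gene, ran the other way on low-fat, 3.27-fold higher in A/J, with signals of 2884, 1652, 881 and 1898. At 1.5-fold on low-fat, 1 of the 19 was higher in A/J and 4 were lower: Creld2, Manf (1.74-fold), Sec61b (1.72-fold) and Atf4 (1.65-fold). On high-fat 0 were higher and 2 were lower, Creld2 and Sdf2l1 (1.58-fold). At an unadjusted p under 0.05 limma had 2 higher in A/J (Hyou1 and Herpud1) and 3 lower (Sdf2l1, Creld2 and Manf).

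Cirbp, a cold-inducible RNA-binding protein whose transcript is known to follow body temperature, read 128 and 203 in A/J and 83.0 and 67.5 in C57BL/6J. A/J exceeded C57BL/6J by at least 1.28-fold on low-fat and by at least 2.03-fold on high-fat, and the gene was not called (log2 0.69 as a bound, limma adjusted p = 0.077). Heat shock genes are known to be under daily control in mouse tissues, so clock genes were read beside them. Of 14 measured, limma called 5 higher in A/J (Dbp, Nr1d1, Nr1d2, Tef and Per3) and 4 lower (Arntl, Npas2, Nfil3 and Bhlhe40), beside 3.83% and 3.68% of all genes. Dbp read 910 and 708 in A/J and 32.9 and 49.8 in C57BL/6J, and Arntl read 174 and 308 in A/J and 611 and 653 in C57BL/6J. These genes separate the strains on the same arrays as Hspa1b and Hsph1, and their part in the result was not tested. The hour of collection was not known here. Immediate early genes, which respond to handling and tissue damage, summed to 12245, 13054, 14291 and 11746 over 13 genes (12 measured), and limma called 0 of them for strain (at an unadjusted p under 0.05, 1 lower in A/J).

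The 15 members that were not measured are Dnajb3, Dnajb7, Dnajb13, Dnajc5b, Dnajc12, Dnajc17, Dnajc24, Dnajc27, Hspa1l, Hspa2, Hspa12b, Hspb2, Hspb3, Hspb7 and Hspb8. Of these, 12 lay under the floor on all 4 arrays. Hspa2, a testis Hsp70, reached 124 and 115 in A/J, Hspb8 reached 117 and 113 in A/J, and Dnajc12 reached 123 on A/J high-fat. Most are known from testis, muscle or heart. The probe sets of Dnajc19, which are shared with its pseudogene, were left out.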

How the data were processed

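Per the labels' protocols, total RNA was converted to biotinylated cRNA and hybridised, and the authors computed a linear signal intensity per probe set with Microarray Suite 5.0. Whether arrays were scaled to a target was not known here. Of 22690 probe sets, 64 controls were left out, and only the 20380 annotated to 1 gene were used (691 have several, 1555 none). RefSeq matched 20351 by gene number and changed 0 symbols. Each array was scaled to a 2% trimmed mean of 500, a floor of 100 was set and log2 taken. The probe set with the highest mean stood for its gene (121 probe sets, 36 members with over 1).

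Members were counted at 1.5-fold with no test. Strain and diet were fitted as additive terms with limma 3.58.1 (R 4.3.3) over 8036 measured genes, with Benjamini-Hochberg adjustment, and the fit was tested on simulated data. Its p-values measure spread among 4 pools, not between pools of a group. Named with all signals were members at 1.5-fold in any comparison, those called by limma and the 5 brightest of each of 3 classes (Hspa and Hsph; Hsp90 and Hspb to Hspe; Dnaj); list genes were named at 1.5-fold, as the brightest 3, or as examples chosen after their values were seen. The members, lists and tests were chosen with earlier results of these data known. Motifs were searched in RefSeq promoters as letters on both strands. Python 3.11.15, numpy 2.4.6, pandas 2.3.3 and matplotlib 3.10.9 did the other steps. Alternatives were quantile normalization, no scaling, floors of 50 and 200, a pseudocount of 50, the mean of all probe sets, no shared probe sets, no filter, 1 factor only, variances moderated with an intensity trend, a 2-fold threshold and leaving out each array in a fit with 1 factor.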

Additional observations from a re-analysis of the deposited data

Results flagged for a closer look

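Probe sets that do not represent their gene were read as further data, and 9 of their ratios passed 2-fold where the representing probe set did not. In 3 of these, all A/J over C57BL/6J on high-fat, the representing probe set was itself at least 1.5-fold lower: other Hspa8 probe sets gave -1.32 and -1.18 on the log2 scale against -0.65, and an Hsp90aa1 probe set gave -1.14 against -0.71. In the other 6 the representing probe set was under 1.5-fold. For Hspa8, one of these that may detect related transcripts was higher on high-fat in C57BL/6J by 1.28 on the log2 scale, from 6348 to 15380. A dim Hspa8 probe set, with 355 on C57BL/6J low-fat and 117 to 154 on the other arrays, gave -1.60 for diet in C57BL/6J and -1.34 for A/J over C57BL/6J on low-fat. For Hsp90aa1 another probe set was higher on high-fat in C57BL/6J by 1.19, from 1437 to 3289. For Hspb1 the second probe set was higher by 1.13 in the same comparison, from 183 to 401. For Dnajc11 the second probe set gave 1.03 for A/J over C57BL/6J on low-fat, at 321 against 157, where the representing one gave -0.20. None of these 9 ratios has a replicate array.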

How the results depend on the processing

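No paired analysis was possible because each group has 1 array. The 7 called genes stayed lower in A/J under every alternative fit, and Hspa1b was called in 7 of 9 additive alternatives, Hspa1a in 7, Dnajb1 in 6, Dnajc10 in 5, Hspe1 in 2, Hsph1 in 6 of 8 and Hspb1 in 2 of 8. In place of 7, the limma count of members lower in A/J was 3 with 1 factor only, 0 with a floor of 200, 4 with the mean of probe sets, 0 with no filter, 4 with no scaling and 3 without shared probe sets. It was 9 with an intensity trend and 9 with a pseudocount of 50. Leaving out an array also meant dropping the other factor, since a fit of both on 3 arrays has no residual degrees of freedom. Set against the 3 with 1 factor on all 4 arrays, it gave 0 to 0, and those fits, like the floor of 200 and no filter, called 0 of all genes. For the stress-inducible list, in place of 5, it was 2 with 1 factor only, 0 with a floor of 200, 0 with no filter, 3 with no scaling, 3 without shared probe sets and, with 1 factor, 0 to 0 without an array.

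Members lower in A/J on high-fat (11) were 6 with no scaling, 5 without shared probe sets and 6 at 2-fold, and those higher (0) were 1 with a floor of 50 and 2 with no scaling. On low-fat, 5 were lower at 2-fold (9 at 1.5-fold), and 1 was higher with no scaling. Counted relative to the median of all genes, no scaling gave 0 higher on each diet, 10 lower on low-fat and 13 lower on high-fat. Stress-inducible members lower on high-fat (8) were 5 with no scaling and 5 without shared probe sets. Members with both A/J arrays below both C57BL/6J arrays (25) were 14, and above (4) were 10, with no scaling, where the shares of all genes were not computed. For diet in A/J, the 3 lower members were 0 with a floor of 200, 0 with the mean of probe sets, 0 with a pseudocount of 50, 1 with quantile normalization and 0 at 2-fold. In C57BL/6J the 3 higher members were 1 with no scaling, 5 without shared probe sets and 0 at 2-fold. The 1 lower member was 0 with a floor of 200, 3 with no scaling, 2 without shared probe sets and 0 at 2-fold. Relative to the median of all genes, no scaling gave 3 higher and 1 lower in C57BL/6J. Hspa8 on high-fat reversed to 0.39 without shared probe sets. The cause was not tested. The alternatives for the stress-inducible list and for arrays that do not overlap were added after seeing the data.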
